A study of Homo sapiens with 6 samples.

Results

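The ATP-binding cassette (ABC) transporter family was described in RNA-seq libraries of UWB1.289, an established human ovarian carcinoma cell line without functional BRCA1, after knockdown of the histone acetyltransferase HBO1. Members were the genes whose current symbol is ABC, a letter from A to G and a number, pseudogenes left out. The deposited table held 45 of them among 26988 named genes. Of the 45, 32 had a mean of at least 10 normalized counts over the 6 libraries and were tested, beside 15181 genes in all, and 13 were below that mean.

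In the shHBO1 group (3 libraries) the cells carried a lentiviral short hairpin RNA (shRNA) against HBO1, the product of KAT7, and in the shCTRL group (3 libraries) a control hairpin. Both groups were transduced with 10 µg/mL polybrene and selected with puromycin, raised from 1 to 3 µg/mL, starting after 96 h. The number of hairpins and of clones was not given in the sources used here, so off-target effects and the effect of HBO1 loss cannot be told apart. The libraries of a group carry the numbers 1 to 3, with no statement that each came from its own culture. The p-values therefore set the difference between groups against the spread among these libraries, and that spread may be technical.

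ABC proteins bind and hydrolyse ATP through a conserved nucleotide-binding domain. In most of them it is joined to membrane-spanning segments and drives lipids, sterols, metabolites or drugs across a membrane, while the E and F subfamilies lack those segments and act on ribosomes and translation. ABCA1 and ABCG1 pass cellular cholesterol to apolipoproteins and high-density lipoprotein and are induced by the sterol-sensing LXR receptors when cells are sterol-rich. ABCB1, ABCC1 and ABCG2 export chemotherapeutic drugs and are the members most often studied in drug-resistant ovarian cancer. Puromycin, used here in both groups, is a known substrate of ABCB1.

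Recovered reads ran from 35940400 to 39908703 per library, and ABC genes took 0.107 to 0.118% of them. KAT7 fell to 888 ± 113 normalized counts in shHBO1, against 3707 ± 214 in shCTRL (SD, n = 3 each), a log2 fold change of −2.07 (SE 0.11, limma adjusted p = 0.00123). The 10 ovarian epithelial markers all had a mean of at least 10, WT1 with 0 in shCTRL replicate 1. They summed to 309083 to 364371 in shHBO1 and 328739 to 377553 in shCTRL, mostly the keratins KRT7, KRT8 and KRT18. Of the 10 log2 fold changes, 7 were below 0 and 3 above it (WT1 at 0.90, EPCAM at 0.036 and CDH1 at 0.0046), and none passed. Lower in shHBO1 within each replicate number were MSLN (−0.37), MUC16 (−0.39), KRT7 (−0.092) and PAX8 (−0.074). Of markers of other cell types, the 3 hepatocyte genes summed to 3.86 to 8.41 in shHBO1 and 3.75 to 15.2 in shCTRL, with APOA2 and TTR at 0. The 5 leukocyte genes summed to 518 to 683 in shHBO1 and 513 to 654 in shCTRL, mostly CD68. CD14 had 16.8, 24.4 and 14.5 in shHBO1 and 39.6, 38.4 and 38.8 in shCTRL, without overlap, and did not pass. The 5 fibroblast genes summed to 988 to 1294 in shHBO1 and 666 to 1168 in shCTRL, mostly COL1A1 and COL1A2, with DCN at 0. The 4 endothelial genes summed to 790.3 to 949 in shHBO1 and 924 to 1319 in shCTRL, mostly CDH5. Log2 fold changes of the endothelial genes were −0.46 for CDH5, 0.75 for KDR, 0.22 for PECAM1 and −0.13 for VWF, and none passed. The part of such markers in the values below was not tested.

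No ABC gene passed the test between the groups. The limma fit without a block called 0 of the 32 members at an adjusted p under 0.05, where 0.00659% of all tested genes were called (KAT7 alone), and every member had an adjusted p of 1.00. On the recovered reads, edgeR called 0 members without the block (0.00659% of all genes) and with it (0.125%), and DESeq2 called 0 without it (0.125%) and with it (0.968%). DESeq2 gave no adjusted p for ABCA10, ABCA13, ABCC2, ABCG1 and ABCG2 without the block, or for ABCG2 with it, so it could not call them there. At an unadjusted p under 0.05 there was 1 member, ABCC5, against 3.54% of all tested genes. With the replicate number as a block the fit called 0 members (0.125% of all genes), with adjusted p-values from 0.314 to 0.999, and 3 members had an unadjusted p under 0.05 (11.3% of all genes), namely ABCC5, ABCB4 and ABCC3. Leaving out the number 3 libraries in the blocked fit gave 7 members and 14% of all genes at an adjusted p under 0.05, with 1 residual degree of freedom. Leaving out shCTRL replicate 3 alone, without the block, gave 7 members and 15% of all genes at an unadjusted p under 0.05.

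The estimates were centred near 0. The median log2 fold change, shHBO1 minus shCTRL on the log2(normalized count + 1) scale, was −0.0076 over the 32 members and 0.00016 over all tested genes. It was below 0 in 18 members and above 0 in 14, and 22 of the 32 lay within 0.2 of 0. The 95% confidence interval lay inside a 2-fold change in either direction for 25 members and inside a 1.5-fold change for 22. The 23 members with a mean of at least 200 had estimates from −0.41 (ABCA4) to 0.24 (ABCC5), whereas the other 9 tested members spread from −0.76 (ABCG2) to 0.36 (ABCA13), and the interval excluded a 2-fold change for only 3 of these 9. In a bulk sample, a smaller share of cells that express a gene and less RNA per cell cannot be told apart.

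**Figure D1:**
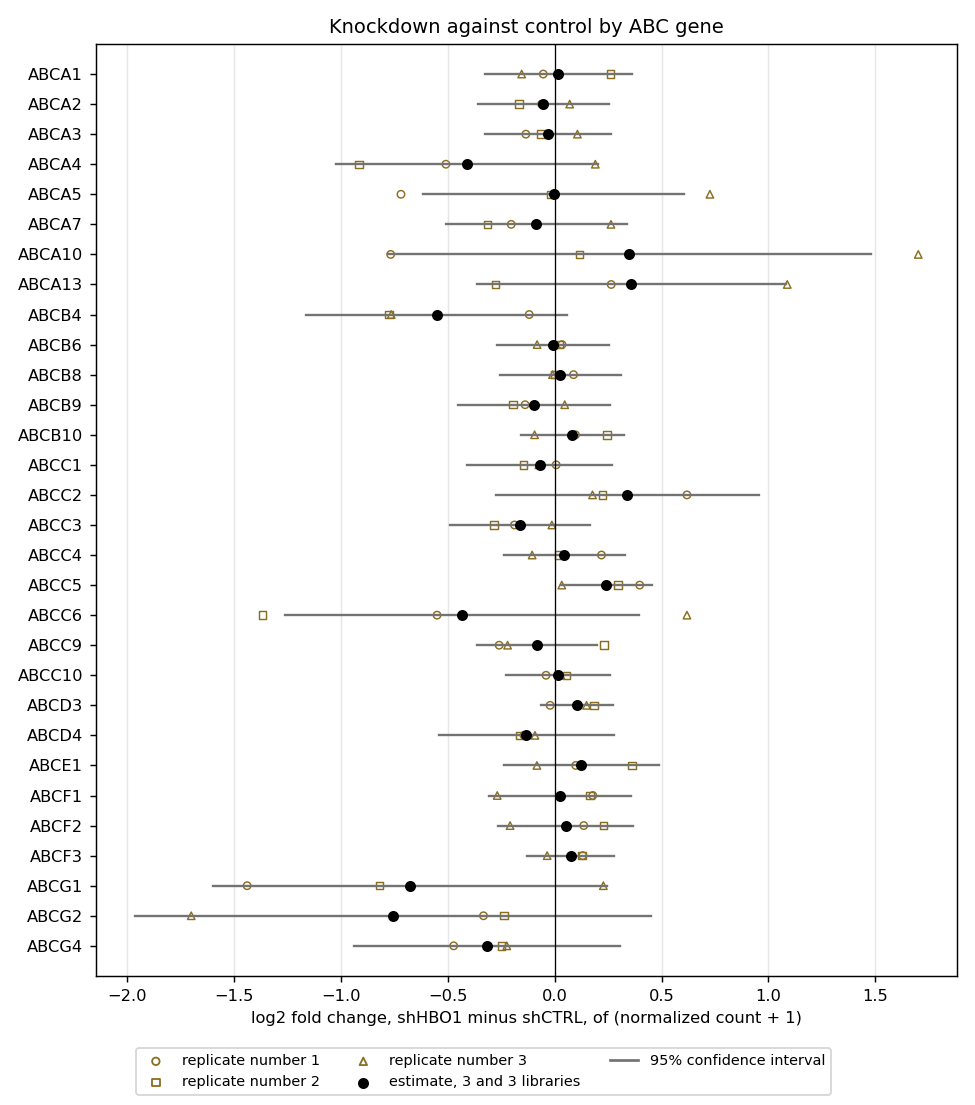
Log2 fold change of the tested ABC genes reported by name, shHBO1 minus shCTRL, on the horizontal axis, with its estimate (black point) and 95% confidence interval (grey line) from the fit of 3 and 3 libraries. Open symbols show the difference within each replicate number. Estimates of abundant members sit near 0, and the widest intervals belong to the low-count genes ABCG2, ABCA10 and ABCG1.

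Per kilobase of transcript, the most abundant were the members that do not transport: ABCE1, which splits ribosomes after termination, averaged 1666 ± 175 normalized counts per kilobase in shHBO1 and 1547 ± 354 in shCTRL, and ABCF3, a translation-associated ATPase, averaged 1602 ± 65.3 in shHBO1 and 1525 ± 149 in shCTRL. These neighbours in the order did not differ beyond their spread. Next on that scale came ABCF2 (1102 in shHBO1 and 1075 in shCTRL), the peroxisomal half-transporter ABCD3 (862 and 801) and ABCF1 (792 and 789). The drug exporters ABCC1 (536 and 563), ABCC3 (427 and 474) and ABCC5 (466 and 393) were the highest of the C subfamily. At the other end were ABCG2, at 2.46 in shHBO1 and 5.09 in shCTRL, and ABCA13, at 2.41 and 1.90. Lengths were those of the GENCODE transcript paired with each gene's most abundant RefSeq transcript.

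**Figure D2:**
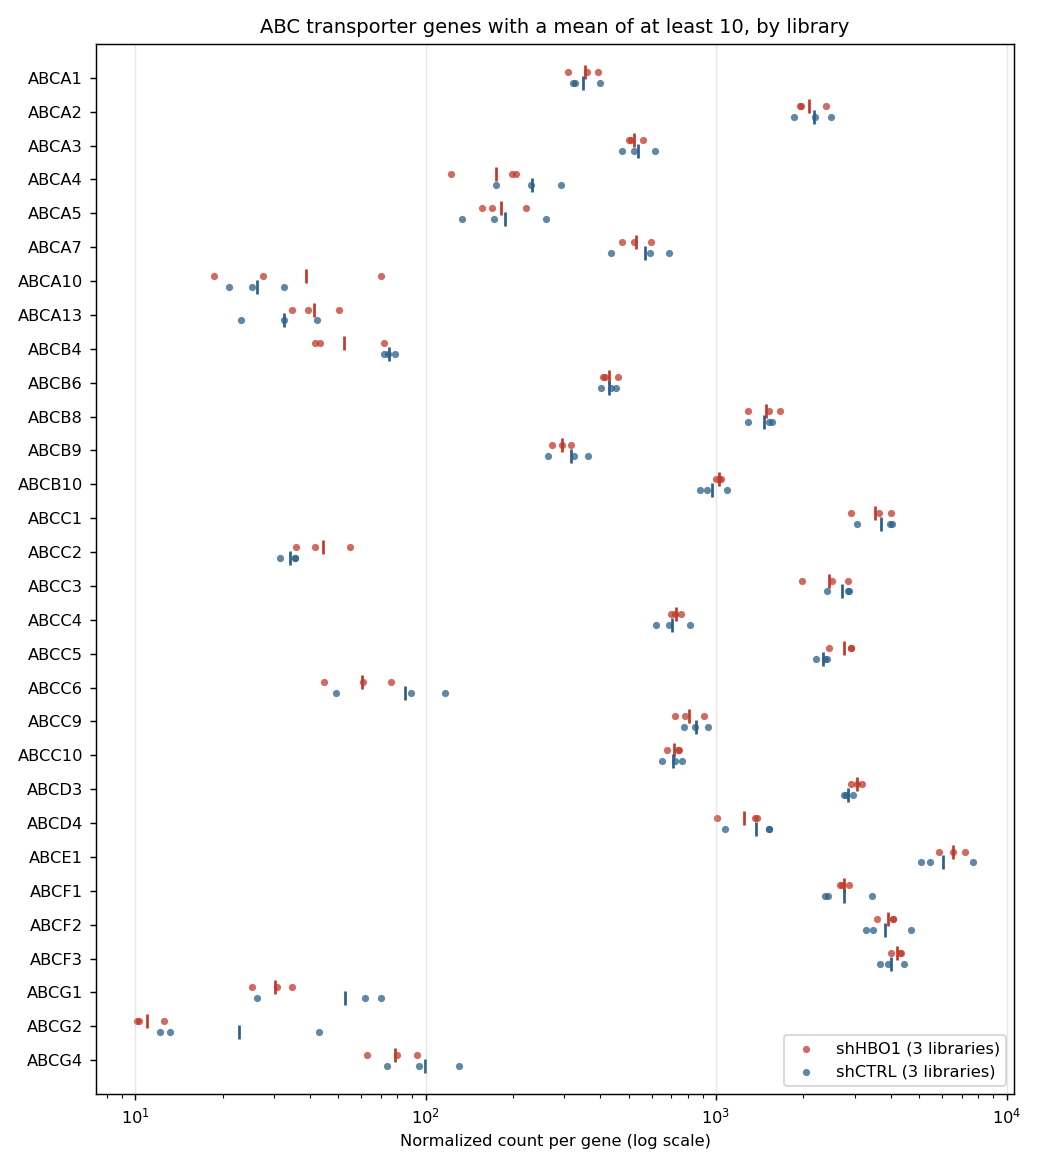
Normalized count of the tested ABC genes reported by name (horizontal log axis) in 3 shHBO1 libraries (red, upper points of each row) and 3 shCTRL libraries (blue, lower points), with a tick at each group mean. The groups overlap for every gene shown except ABCC5, ABCC2 and ABCB4, while genes range from about the level of ABCG2 to that of ABCE1.

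Promoter sequences were compared between members above and below the mean of 10, as a description with no test. RefSeq promoters (GRCh38.p14, matched by symbol) were found for 35 of the 45 members, some with several starts. Tested members without one included ABCC1, ABCC3, ABCA4, ABCB4 and ABCG1. For 46 starts, bases just after the start were found in a GENCODE transcript of the gene. For others, such as those of ABCD3 and ABCF2, they were not. In the 250 bases before the start, the 36 windows of tested members had a median GC content of 66.4% and a median of 21 CpG dinucleotides. The 17 windows of members below the mean of 10 had 46.4% and 2, and all 35116 windows had 58.0% and 11. The GC contents overlapped, from 23.6 to 85.6% in tested members and from 35.2 to 68.4% in the others, and ABCG2, tested but near the limit of detection, has windows from 40% to 73.6%. The windows below belong to ABCE1, the most abundant member per kilobase, to ABCB11, the bile salt exporter of hepatocytes, which had 1 read over all libraries, and to ABCC5 and ABCC2, the 2 members whose shHBO1 values all lay above the shCTRL values. Capitals mark matches, on either strand, to the CCAAT box (its name gives the letters), the GC box, spelled GGGCGG, the E-box, spelled CACGTG, and the TATA box, spelled TATAAA.
ABCE1, chr4:145098061-145098310, plus strand, 24 CpG: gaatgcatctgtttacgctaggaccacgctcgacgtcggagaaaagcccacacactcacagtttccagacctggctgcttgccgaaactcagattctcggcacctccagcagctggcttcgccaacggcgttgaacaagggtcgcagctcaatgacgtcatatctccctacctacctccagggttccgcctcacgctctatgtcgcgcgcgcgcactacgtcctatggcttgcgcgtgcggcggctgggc
ABCB11, chr2:169031325-169031574, minus strand, 2 CpG: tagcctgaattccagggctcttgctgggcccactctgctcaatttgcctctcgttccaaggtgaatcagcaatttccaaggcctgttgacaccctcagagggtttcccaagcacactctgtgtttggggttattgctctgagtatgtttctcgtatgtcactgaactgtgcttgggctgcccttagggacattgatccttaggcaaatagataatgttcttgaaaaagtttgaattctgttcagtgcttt
ABCC5, chr3:184017885-184018134, minus strand, 21 CpG: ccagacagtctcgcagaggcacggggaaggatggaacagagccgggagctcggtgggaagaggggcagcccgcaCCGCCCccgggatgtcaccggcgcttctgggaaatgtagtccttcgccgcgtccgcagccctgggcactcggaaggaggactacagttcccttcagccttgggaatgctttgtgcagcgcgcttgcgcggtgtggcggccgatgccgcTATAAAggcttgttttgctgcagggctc
ABCC2, chr10:99782390-99782639, plus strand, 1 CpG: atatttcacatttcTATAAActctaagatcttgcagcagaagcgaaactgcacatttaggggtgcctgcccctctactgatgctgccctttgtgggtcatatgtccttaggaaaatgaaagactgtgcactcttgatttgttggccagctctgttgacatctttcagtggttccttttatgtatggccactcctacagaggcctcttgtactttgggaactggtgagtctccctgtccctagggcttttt

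ABCE1 and ABCC5 have GC contents of 60% and 64.8%, and ABCB11 and ABCC2 have 46.4% and 45.6%. The ABCC5 window holds a TATAAA whose first base lies 28 bases before the start and a GC box at 176 bases, read as GGGCGG on the opposite strand. In ABCC2 a TATAAA lies 236 bases before the start. GGGCGG occurred in 63.9% of the windows of tested members, 11.8% of those of the members below the mean of 10 and 42.6% of all windows. TATAAA occurred in 13.9%, 5.88% and 10.7%, CCAAT in 16.7%, 29.4% and 32.0%, and CACGTG in 19.4%, 11.8% and 6.34%, in the same order. These are matches of letters and were not read as binding sites. Some windows overlap, as within ABCG2, within ABCC6 and between ABCG5 and ABCG8, so the same bases can count more than once in these shares and medians.

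ABCC5, an exporter of cyclic nucleotides and nucleotide-analogue drugs, had the smallest p-value of the family. It was at 2919, 2910.3 and 2457 normalized counts in shHBO1 replicates 1, 2 and 3, against 2215, 2370.4 and 2400.5 in shCTRL. Each shHBO1 library lay above each shCTRL library, and the lowest shHBO1 value, in replicate 3, was close to the shCTRL values. On the log2 scale shHBO1 was higher by 0.24 (SE 0.091, limma adjusted p = 1.00), and the 95% interval ran from 0.031 to 0.45. With all 6 libraries it did not pass over all genes, with or without the block (blocked limma adjusted p = 0.314). It was among the 7 members that passed in the blocked fit without the number 3 libraries, at 0.35 on the log2 scale. Within replicate numbers 1, 2 and 3 the differences were 0.40, 0.30 and 0.033. The most abundant ABCC5 transcript, NM_005688, overlapped between groups. It had 2160, 2239 and 1742 normalized counts in shHBO1, against 1634, 1843 and 1918 in shCTRL (log2 fold change 0.18, SE 0.13).

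ABCC2, the canalicular exporter of conjugated bilirubin and of platinum drug conjugates, was the other member with all shHBO1 values above all shCTRL values. Its normalized counts were 55.1, 41.8 and 35.7 in shHBO1, against 35.5, 35.6 and 31.5 in shCTRL. The separation between the lowest shHBO1 and the highest shCTRL library was under 1 normalized count. Its log2 fold change was 0.34 (SE 0.26, blocked adjusted p = 0.662). Over all tested genes, 4.49% lay entirely above in shHBO1, so 2 of 32 members is near the background share.

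ABCB4, which flips phosphatidylcholine into bile, was the only member entirely below. It had 71.9, 41.8 and 43.4 normalized counts in shHBO1, against 78.2, 72.1 and 74.5 in shCTRL, and shHBO1 replicate 1 was close to the shCTRL values. The log2 fold change was −0.55 (SE 0.26, limma adjusted p = 1.00, blocked adjusted p = 0.422). Among all tested genes 4.43% lay entirely below, so 1 of 32 is again near the background. The annotated span of ABCB4 overlaps that of CROT (mean 521), and the strand setting of the counting is not given. Whether their exons overlap or share reads was not checked.

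**Figure D3:**
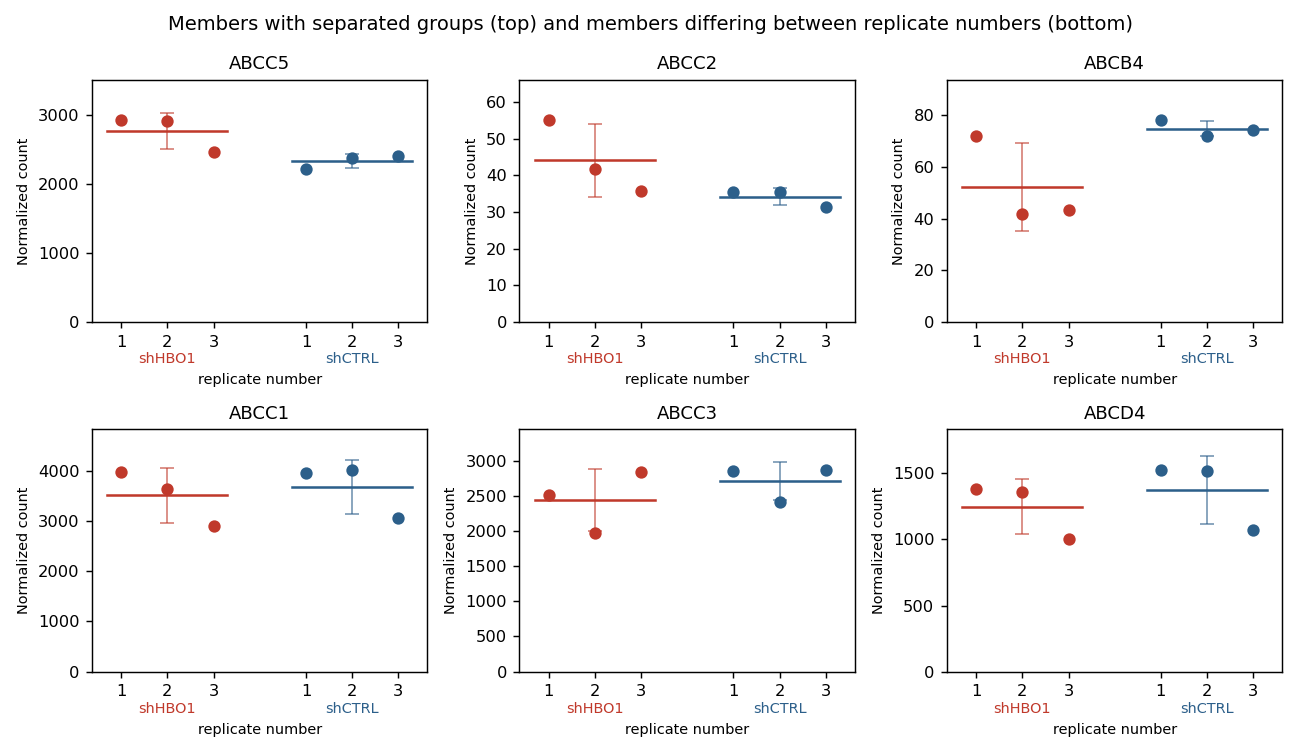
Normalized count by library, shHBO1 on the left and shCTRL on the right of each panel, with group means (lines) and SD (bars, n = 3). In the top row (ABCC5, ABCC2, ABCB4) the groups do not overlap. The bottom row (ABCC1, ABCC3, ABCD4) shows the members that passed between replicate numbers. Replicate 3 is the lowest library of both groups for ABCC1 and ABCD4, and replicate 2 for ABCC3.

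No sterol exporter passed the test between groups. ABCA1, the main exporter of cholesterol and phospholipid to apolipoprotein A-I, had 309, 393 and 359 normalized counts in shHBO1, against 321, 328 and 399.6 in shCTRL. The values of both groups interleaved. Its estimate on the log2 scale was 0.018 (SE 0.15, 95% confidence interval −0.32 to 0.36), an interval inside a 1.5-fold change in either direction. ABCG1, which loads cholesterol onto high-density lipoprotein, had 25.2, 34.6 and 30.9 in shHBO1, against 70.1, 61.8 and 26.2 in shCTRL. In replicates 1 and 2 shHBO1 was lower than shCTRL, and shCTRL replicate 3 was inside the shHBO1 range. Its log2 fold change was −0.68 (SE 0.40, limma adjusted p = 1.00), and its 95% confidence interval, −1.60 to 0.25, includes a 2-fold lower level. With 1 library left out the log2 fold change ran from −1.11 (without shCTRL replicate 3) to −0.42 (without shCTRL replicate 1) and did not pass. In the blocked fit without the number 3 libraries it was −1.13 and passed.

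The other lipid members of the A subfamily overlapped between groups as well. ABCA2, of late endosomes and lysosomes, was at 2388, 1956 and 1942 in shHBO1 and 2491, 2197 and 1849 in shCTRL. ABCA7, a phospholipid exporter related to ABCA1, was at 599, 476 and 520.1 in shHBO1 and 689.6, 592 and 433 in shCTRL. In both genes, replicate 1 was the highest library of its group. ABCA3, known for loading surfactant lipids into lamellar bodies, had 559.7, 501.0 and 510.5 in shHBO1 and 614, 524 and 474 in shCTRL. ABCA5 had 157, 169 and 221 in shHBO1 and 259, 171 and 133 in shCTRL, with the highest library in replicate 3 of shHBO1 and in replicate 1 of shCTRL. The log2 fold changes of ABCA2, ABCA7, ABCA3 and ABCA5 were −0.053, −0.085, −0.030 and −0.0041.

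Of the remaining A members, ABCA4, the retinoid flippase of photoreceptors, averaged 175 ± 46.0 in shHBO1 and 232 ± 58.7 in shCTRL (log2 fold change −0.41, SE 0.26). Leaving out 1 library moved ABCA4 from −0.60 (without shCTRL replicate 3) to −0.17 (without shHBO1 replicate 2). ABCA13 averaged 41.3 ± 7.99 and 32.6 ± 9.54, and ABCA10 38.9 ± 27.7 and 26.3 ± 5.82, in the same order. The ABCA10 mean rested on shHBO1 replicate 3, at 70.4, against 18.7 and 27.5 in replicates 1 and 2. Log2 fold changes were 0.36 (SE 0.31) for ABCA13 and 0.35 (SE 0.49) for ABCA10. ABCA10 and ABCA5 overlap in the annotation. In the G subfamily, ABCG4, a sterol transporter best known from brain, was the most abundant by normalized count, with 93.4, 79.4 and 62.7 in shHBO1 and 130, 94.6 and 73.4 in shCTRL. It was lower in shHBO1 within each replicate number (−0.47, −0.25 and −0.22), with a log2 fold change of −0.31 (SE 0.27, limma adjusted p = 1.00). It ran from −0.51 (without shCTRL replicate 3) to −0.10 (without shCTRL replicate 1) with 1 library left out.

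The genes that respond to LXR beside the exporters were described from a list of 18 regulators and sterol-handling genes. Of the 16 tested, 0 passed in limma in either direction, with or without the block, and 3 (3.54% of all genes) and 4 (11.3% of all genes) had an unadjusted p under 0.05 without and with it. Their median log2 fold change was −0.050, and 11 estimates were below 0. MYLIP, an LXR target that marks the LDL receptor for degradation, had 645, 691 and 579 normalized counts in shHBO1, against 882, 872 and 718 in shCTRL. Its groups did not overlap (log2 fold change −0.37, SE 0.12, limma adjusted p = 1.00, blocked adjusted p = 0.176). APOE, the apolipoprotein that accepts cholesterol from ABCA1 and is itself an LXR target, had 205, 197 and 192 in shHBO1, against 308, 353 and 204.5 in shCTRL (log2 fold change −0.51, SE 0.21, limma adjusted p = 1.00). Its groups overlapped by less than 1 normalized count. Both have smaller unadjusted p-values than ABCA1 or ABCG1, and neither passed over all genes.

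Sterol synthesis genes moved with the replicate number. From a list of 8 synthesis and LDL uptake genes, 0 passed between the groups in limma with or without the block, although all 8 had an unadjusted p under 0.05 with the block (11.3% of all genes) and an estimate below 0 (median log2 fold change −0.37). All 8 passed between replicate numbers (9.69% of all genes), with a median of −1.69 on the log2 scale between number 3 and number 1. SREBF2, the master regulator of the pathway, had 5784, 4153 and 2379 in shHBO1 and 7373, 5759.6 and 2788 in shCTRL. ABCA1 had 0.26 between number 3 and number 1 (limma F test adjusted p = 0.400), and ABCG1 −0.55 (adjusted p = 0.460). Whether the sterol state of the cultures had a part in the values of ABC genes was not tested.

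**Figure D4:**
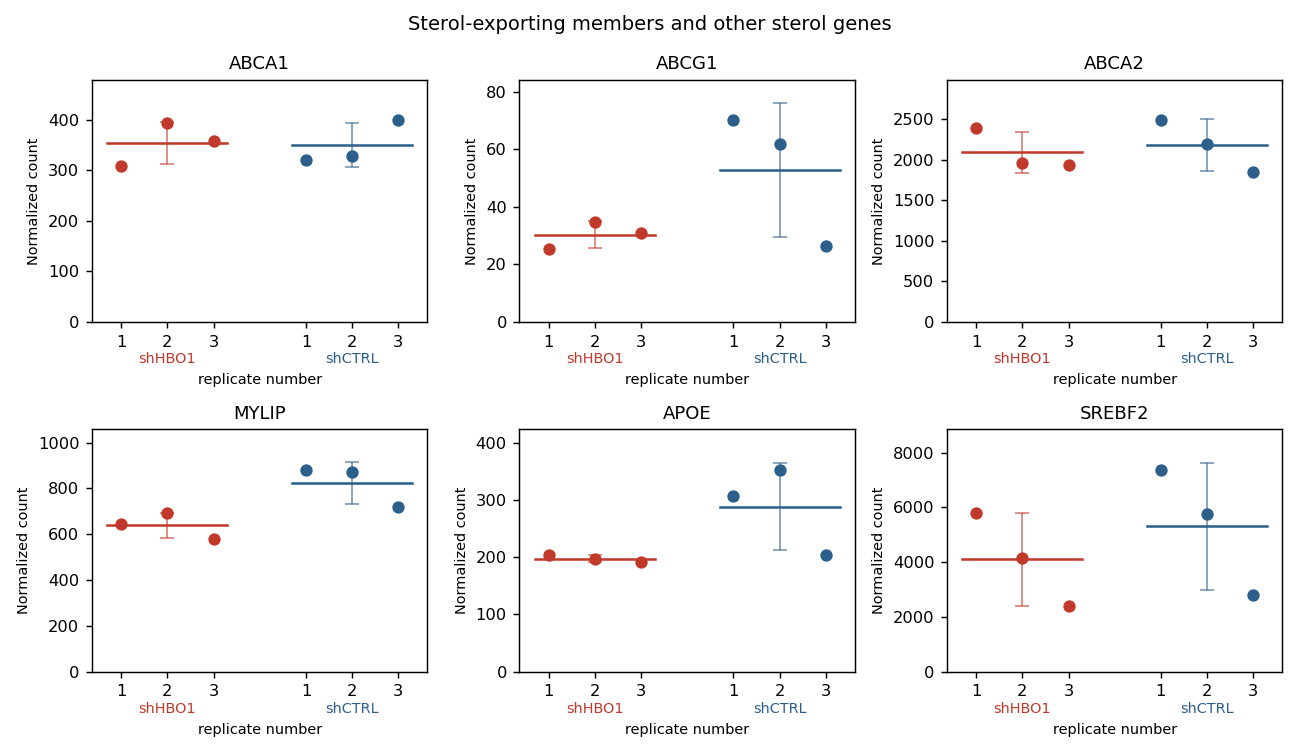
Normalized count by library for the sterol-exporting members ABCA1, ABCG1 and ABCA2 and for MYLIP, APOE and SREBF2, shHBO1 left and shCTRL right, with means (lines) and SD (bars, n = 3). SREBF2 is highest in replicate 1 of both groups, which ABCA1 is not, and MYLIP is the only one of the 6 genes whose groups do not overlap.

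Among drug exporters, ABCC1 (MRP1), which exports glutathione conjugates and anthracyclines, was the most abundant by normalized count. It was at 3989, 3641 and 2913 in shHBO1, against 3969, 4027 and 3066 in shCTRL. Replicate 3 was the lowest library in both groups, while the groups overlapped. Between groups it differed by −0.071 on the log2 scale (SE 0.15), with a 95% interval from −0.41 to 0.27. Between number 3 and number 1 it was −0.41, and ABCC1 passed the test between replicate numbers (limma F test adjusted p = 0.0206).

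ABCC3, a basolateral exporter of bile acids and glucuronides, had 2508, 1976 and 2844 normalized counts in shHBO1, against 2857, 2406 and 2869 in shCTRL. Replicate 2 was the lowest library of each group. It passed between replicate numbers (adjusted p = 0.0477), and its log2 fold change between groups was −0.16 (SE 0.14, blocked limma adjusted p = 0.437). In the D subfamily ABCD4, a lysosomal carrier of vitamin B12, had 1382, 1357 and 1006 in shHBO1 and 1526, 1518 and 1073 in shCTRL, with replicate 3 lowest in both. It passed between replicate numbers (adjusted p = 0.0159), with −0.48 between number 3 and number 1 and −0.13 (SE 0.18) between groups. These 3 of 32 members compare with 9.69% of all tested genes called between replicate numbers, which is near the same share. With the most abundant transcript of each gene in place of the sum, 0 members and 0.0869% of genes were called between replicate numbers. The calls of ABCC1, ABCC3 and ABCD4 did not hold there. ABCC1 has 1 RefSeq transcript, so its values were the same in both settings, and only the values of other genes in the fit differed.

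ABCC4 (MRP4), an exporter of cyclic nucleotides and prostaglandins, had 721, 699 and 758 in shHBO1 and 619.5, 688 and 815 in shCTRL. ABCC10 (MRP7), which exports taxanes, had 744, 675 and 737 in shHBO1 and 765, 649 and 723 in shCTRL. Both overlapped between groups, with log2 fold changes of 0.045 (SE 0.12) and 0.015 (SE 0.10). The vascular-calcification gene ABCC6 averaged 60.6 ± 15.7 in shHBO1 and 85.2 ± 34.1 in shCTRL, and its pairs differed by −0.55, −1.37 and 0.62. It has near-identical pseudogene copies, ABCC6P1 and ABCC6P2 (means 3.58 and 5.89), so its counts are uncertain. ABCC9, the sulfonylurea receptor subunit of ATP-sensitive potassium channels, averaged 804 ± 93.8 in shHBO1 and 851 ± 82.2 in shCTRL. ABCC6 and ABCC9 had log2 fold changes of −0.43 (SE 0.36) and −0.083 (SE 0.12). With 1 library left out, ABCC6 ran from −0.78 (without shCTRL replicate 3) to −0.16 (without shCTRL replicate 2).

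ABCB1 and ABCG2, the other classical drug exporters, were near the limit of detection. ABCB1 (P-glycoprotein) had 5.61, 4.07 and 6.75 normalized counts in shHBO1 and 4.06, 6.56 and 9.44 in shCTRL, from 4 to 9 reads per library, and was below the mean for testing. ABCG2 (breast cancer resistance protein) had 10.3, 10.2 and 12.5 in shHBO1 and 13.2, 12.2 and 43.0 in shCTRL. Only shCTRL replicate 3 stood apart, with 41 reads against 10 to 13 in the other libraries. The log2 fold change of ABCG2 was −0.76 (SE 0.52) with all libraries and −0.19 without shCTRL replicate 3.

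Partners in drug and metal handling were read from a list of 18 genes, of which 15 were tested and 0 passed between groups in limma with or without the block. At an unadjusted p under 0.05 there were 0 without the block (3.54% of all genes) and 2 with it (11.3%), and the median log2 fold change was −0.067. SLC31A1, the copper and platinum importer, had 2178, 2028 and 2289 normalized counts in shHBO1 and 2264, 2386 and 2583 in shCTRL, with a slight overlap (log2 fold change −0.15, SE 0.085). GSTP1, which conjugates drugs to the glutathione that ABCC1 exports with them, had 35454, 33738 and 34536 in shHBO1, against 36881, 36742 and 38010.0 in shCTRL. Its groups did not overlap, at a log2 fold change of −0.11 (SE 0.063, limma adjusted p = 1.00).

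Peroxisomal members import fatty acyl-CoA for oxidation. ABCD3 (PMP70) had 2909.7, 3185 and 3052 normalized counts in shHBO1, against 2952, 2802 and 2752 in shCTRL. Replicates 2 and 3 of shHBO1 lay above all shCTRL libraries and replicate 1 did not (log2 fold change 0.10, SE 0.072). Among 8 peroxisomal partner genes 0 passed in limma (at an unadjusted p under 0.05, 0 without the block and 2 with it, beside 3.54% and 11.3% of all genes), with a median of −0.0016, and HSD17B4 (−0.15) and PEX19 (0.13) had the smallest p-values. HSD17B4 had 2031, 2006 and 1898 in shHBO1, against 2227, 2292 and 2068 in shCTRL, groups that did not overlap (blocked limma adjusted p = 0.408). The groups of PEX19 overlapped.

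The mitochondrial half-transporters overlapped between groups. ABCB8, part of a mitochondrial potassium channel, was the most abundant B member by normalized count, at 1658, 1526 and 1284 in shHBO1 and 1559, 1524 and 1293 in shCTRL. ABCB10, needed for haem synthesis, averaged 1020.5 ± 21.9 in shHBO1 and 967 ± 109 in shCTRL. ABCB6, a porphyrin transporter, averaged 427 ± 27.3 in shHBO1 and 429 ± 24.3 in shCTRL. The log2 fold changes of ABCB8, ABCB10 and ABCB6 were 0.027, 0.083 and −0.0086, with standard errors of 0.10 to 0.12. Of 8 iron-sulfur and haem partners 0 passed in limma (1 at an unadjusted p under 0.05, without and with the block, beside 3.54% and 11.3% of all genes), with a median of −0.011. NFS1, the cysteine desulfurase, had 1489, 1322 and 1309.5 in shHBO1 and 1584, 1536 and 1644 in shCTRL, groups that did not overlap (log2 fold change −0.21, SE 0.086, limma adjusted p = 1.00, blocked adjusted p = 0.334).

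The translation ATPases were highest in shCTRL replicate 3. ABCE1 had 5851, 6523 and 7223 normalized counts in shHBO1, against 5464, 5079 and 7650.3 in shCTRL, and ABCF3 had 4008, 4284 and 4321 in shHBO1, against 3658, 3918 and 4427 in shCTRL. In numbers 1 and 2 the shHBO1 library was above its shCTRL counterpart, and in number 3 it was below. ABCE1, ABCF1, ABCF2 and ABCF3 shared this order, with differences of 0.099 to 0.18 in number 1, 0.13 to 0.36 in number 2 and −0.27 to −0.035 in number 3. The fits gave log2 fold changes of 0.13 (SE 0.16) for ABCE1, 0.025 for ABCF1, 0.052 for ABCF2 and 0.075 (SE 0.087) for ABCF3. ABCF1 averaged 2755 ± 99.97 in shHBO1 and 2748 ± 612 in shCTRL, and ABCF2 3908 ± 271 and 3811 ± 761, in the same order. ABCF2 shares sequence with the readthrough gene ABCF2-H2BK1 (mean 2008), so its counts are uncertain. The annotated span of ABCE1 overlaps that of ANAPC10 (mean 574), and whether they share reads was not checked. Of 8 ribosome recycling and translation partners 0 passed in limma (0 at an unadjusted p under 0.05, without or with the block, beside 3.54% and 11.3% of all genes), with a median of 0.052, and EIF2S2 (−0.071) and GCN1 (0.086) had the smallest p-values.

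Of the ABC proteins outside the symbol rule, TAP1 and TAP2, which carry peptides into the endoplasmic reticulum for HLA class I, averaged 713 ± 173 and 2869 ± 206 in shHBO1 and 761 ± 237 and 2742 ± 531 in shCTRL, and neither passed. The chloride channel CFTR was at 0 to 1.87 normalized counts in shHBO1 and 1.02 to 2.10 in shCTRL.

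At transcript level, 59 RefSeq transcripts of ABC genes were tested and 0 passed in limma, with or without the block. Of all transcripts, 0.00297% passed without the block and 0 with it, so the blocked fit says nothing particular to ABC transcripts. At an unadjusted p under 0.05 there were 2 without the block (3.76% of all transcripts) and 3 with it (5.48%). In 8 of the 59 the groups did not overlap, and over all 33629 transcripts this was 9.09%. ABCB9, a lysosomal peptide transporter related to TAP, held 2 of the 8, in opposite directions. NM_001243013 had 40.2, 75.4 and 106 normalized counts in shHBO1, against 14.2, 34.7 and 8.39 in shCTRL (log2 fold change 2.02, SE 0.68, limma adjusted p = 1.00, blocked adjusted p = 0.843). NM_019625 had 196, 216 and 150.5 in shHBO1, against 271, 290.3 and 248.5 in shCTRL (log2 fold change −0.54, SE 0.22, limma adjusted p = 1.00).

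As shares of all ABCB9 counts, NM_001243013 took 13.6, 23.9 and 38.9% in shHBO1 replicates 1, 2 and 3, against 4.38, 9.59 and 3.17% in shCTRL. NM_019625 took 66.5, 68.4 and 55.1% in shHBO1, against 83.4, 80.3 and 94.0% in shCTRL. Neither share overlapped between groups, while the gene as a whole averaged 295 ± 21.3 in shHBO1 and 317 ± 49.1 in shCTRL (log2 fold change −0.095, SE 0.15). How reads were assigned to transcripts was not given in the sources used here, and ABCB9 overlaps OGFOD2 (mean 732). A transcript share also differed between libraries of 1 group in ABCA2, where NM_212533 took 2.00% of that gene in shCTRL replicate 2 and 33.5 to 44.2% in the other 5 libraries. Of the other 6 transcripts with separated groups, those higher in shHBO1 included NR_135125 (ABCC5), NM_001122674 (ABCD3) and NM_000392 (ABCC2), and those lower were NM_018850 (ABCB4) and NM_016818 (ABCG1).

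**Figure D5:**
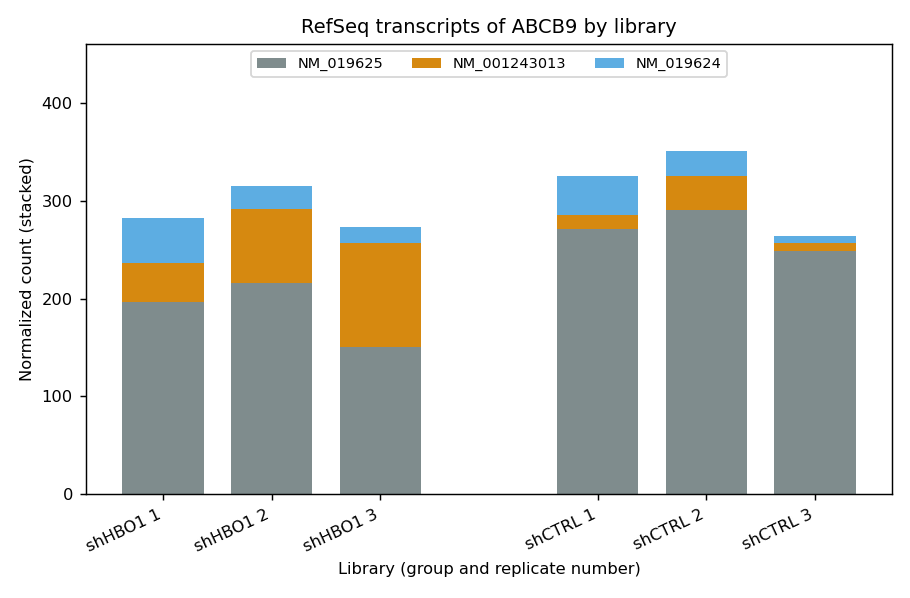
Normalized count of the 3 ABCB9 transcripts with a mean of at least 10, stacked by library, with the shHBO1 libraries on the left and the shCTRL libraries on the right. NM_001243013 (orange) is larger and NM_019625 (grey) smaller in each shHBO1 library than in each shCTRL library.

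The 13 members below a mean of 10 had at most 9 reads in any library. ABCA12, ABCA6 and ABCC8 had 0 reads in all 6 libraries, where a count of 0 allows up to 3 reads, or 0.0752 to 0.0835 CPM, for counting error only. The keratinocyte lipid transporter ABCA12 and the pancreatic sulfonylurea receptor ABCC8 are best known from other tissues. Totals over the 3 libraries of a group were 17 reads in shHBO1 and 20 in shCTRL for ABCB1, 11 and 11 for ABCA9, 5 and 16 for ABCC11, and 9 and 10 for ABCD2. The intestinal and hepatic sterol exporters ABCG5 and ABCG8, which work as a pair, had 3 and 5 reads in shHBO1 and 3 and 5 in shCTRL. ABCA8, ABCB5, ABCB11 and ABCC12 had 3 reads or fewer in either group. These genes were left out of the main test. With no filter on low values, 42 members were tested and 0 passed in limma between groups, beside 1 of all 19797 genes. At so few reads, the lack of a call does not show equal levels.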

How the data were processed

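Total RNA of 6 samples (3 shHBO1, 3 shCTRL) was sequenced after standard Illumina library preparation, per the labels' protocols. The deposited table holds normalized signal for 58215 RefSeq transcripts. Bowtie 1.2.1.1, SAMtools, DESeq2 and hg19 are named without roles in the submitters' processing notes. Within a library all deposited values are multiples of 1 step (100% whole at a tolerance of 0.01 read), and division by it recovered the reads.

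Rows were named from the RefSeq annotation of GRCh38.p14 (57191) and GENCODE release 29 (645); 379 rows, 0.0943 to 0.0996% of reads, stayed unnamed. Rows were summed per gene, so a read counted for several transcripts, overlapping genes or near-identical copies would count more than once. The main test, suited to scaled values, was limma-trend (limma 3.58.1, R 4.3.3) on log2(normalized count + 1) over all 15181 genes whose mean reached 10. Benjamini-Hochberg adjusted p-values were called under 0.05; a moderated F test compared replicate numbers. The tools edgeR 4.0.16 and DESeq2 1.42.0 on recovered reads were alternatives. The code of limma, edgeR and DESeq2 was checked on simulated counts. These had a fixed dispersion, no effect of replicate number and changes only in more abundant genes, so they do not show how the tests perform on these data. Replicates within a group differed at 12.8 to 70.9 chi-square per degree of freedom, so none repeated another. Members, lists, motifs and alternatives were chosen with earlier results of these data known. Tested members are named, except that some members and list genes are counted but not reported by name here; 6 values are given for sterol and drug exporters, the most abundant member per subfamily, ABCE1, ABCD3 and members with an unadjusted p under 0.05 between groups or an adjusted p under 0.05 between numbers; of each list, the 2 genes with the smallest p.

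Deviations from group means correlated across genes at 0.32, 0.20 and 0.48 for replicate numbers 1, 2 and 3. The fits with the replicate block therefore treated numbers as pairs, from the data rather than from a label. The main fit had no block, so its standard errors, intervals and p-values leave this pairing out. The standard error of ABCC1 was 0.15 without the block and 0.058 with it, and that of ABCA13 was 0.31 and 0.32.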

Additional observations from a re-analysis of the deposited data

How the results depend on the processing

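The count of 0 ABC members called held in each alternative but one: other tools, pseudocounts, filters, scalings, each library left out, and every transcript tested (chosen after seeing the data). Tested by transcript with the block, 0 of all transcripts passed, so that setting says nothing particular to the members. With the replicate block and without the number 3 libraries, 7 members passed, ABCA4 (−0.71), ABCC3 (−0.24), ABCC6 (−0.96) and ABCG1 (−1.13) lower, ABCC5 (0.35), ABCE1 (0.23) and ABCF2 (0.18) higher. That fit has 1 residual degree of freedom and called 2131 of all genes, and the cause was not tested. Over all genes, 19 passed with the replicate block, 19 with edgeR and the replicate block, 147 with DESeq2 and the replicate block, and 19 with DESeq2 alone, against 1 with limma or edgeR without a block. With all 6 libraries the block changed no call of a member. Between replicate numbers, 3 members and 1471 genes passed on summed transcripts, and 0 members and 13 genes with the most abundant transcript per gene; the cause was not tested. KAT7 passed in each of the 19 alternatives fitted by gene, from −2.16 to −1.89. Leaving out 1 library changed the sign of 2 to 9 of the 32 member estimates, and without shCTRL replicate 3 there were 7 members at an unadjusted p under 0.05 (15% of all genes), against 1 (3.54%) with all libraries. TMM scaling changed the sign of 0 estimates and quantile normalization of 1. Counts under about 100 limit ABCG1, ABCG2, ABCC2, ABCC6, ABCA10, ABCA13, ABCB4 and ABCG4.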
